A study of Homo sapiens with 2 samples.

Results

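Tubulin isotypes are the gene copies that encode the subunits of microtubules, and 10 of them were followed in SH-SY5Y, a human neuroblastoma cell line derived from a bone marrow metastasis. They were chosen by gene symbol, after earlier results of these data had shown tubulin RNA differing between cycle states and with the mitochondrial share of a cell, and all 10 were found among the 33538 gene rows of the count table. The members were the alpha-tubulin genes TUBA1A, TUBA1B and TUBA1C, the beta-tubulin genes TUBB, TUBB2A, TUBB2B, TUBB3, TUBB4B and TUBB6, and the gamma-tubulin gene TUBG1.

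Alpha- and beta-tubulin fold with the help of the chaperonin CCT, prefoldin and tubulin cofactors, pair into dimers and polymerise into microtubules, which carry transport along neurites and form the mitotic spindle. Gamma-tubulin sits in a ring complex that starts new microtubules at centrosomes. Isotypes differ mainly in their last residues and in the tissues that use them. TUBA1A, TUBB2A, TUBB2B and TUBB3 are known from neurons and TUBB4B from dividing and ciliated cells, while TUBA1B and TUBB are found in most cells. Cells also shorten the life of tubulin mRNA when free dimers accumulate.

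The cells were untreated SH-SY5Y bought from ATCC, grown in 2 flasks called SplitA and SplitB that were split from 1 culture, marked with a hashtag antibody each and pooled into 1 single-cell library. No treatment, genotype or time differed between the flasks, so the comparisons below are between cells, summed within each flask. Of 2879 cells, 2784 carried 1 hashtag clearly (at least 3 times the other, with the other low) and were used here, 1179 from SplitA and 1605 from SplitB, and no barcode occurred more than once. These singlets held 505 to 27205 UMIs each, with a median of 5376.5. Of 10 adrenergic neuroblastoma markers, 9 had 69.1 to 759.6 CPM, the UMIs of a gene per 1000000 UMIs of nuclear genes, and TH, the first enzyme of catecholamine synthesis, had 1.73. Of 8 mesenchymal and fibroblast markers, VIM stood at 142.2 CPM and the other 7 at 0 to 3.84, with COL1A2 and PRRX1 at 0.

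Cycle states were called from the S and G2/M gene lists, without any tubulin gene, in 1920 singlets with at least 1000 genes and under 15% of UMIs on the 13 mitochondrially encoded protein genes. G1 held 351 SplitA and 480 SplitB cells, S held 249 and 313, and G2M held 229 and 298. The states are ranges of a score, and 188 of the 1920 cells lay within 0.02 of a limit. For the second comparison all singlets were divided by that mitochondrial share into under 15% (847 SplitA and 1130 SplitB cells), 15 to 30% (139 and 128) and over 30% (193 and 347). These classes are likewise ranges, with 27 cells at 14 to 16% and 59 at 29 to 31%. Both divisions and the tubulin values come from the same cells' counts, and the flasks share a culture and a library. The p-values below thus measure counting error and the spread between 2 flask sums, with that spread estimated in part over all genes together. They do not measure the spread between cultures or libraries.

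The promoters of the 3 isotypes with the largest or most contrasting differences below are shown, because TUBB4B and TUBA1B were called between cycle states and TUBA1A was not, although TUBA1A and TUBA1B belong to 1 gene cluster. Each is the 250 bases upstream of the RefSeq transcript start in GRCh38.p14, written 5′ to 3′ on the strand of the gene. Capitals mark CCAAT (the NF-Y box), GGGCGG (the GC box) and TATAAA (a form of the TATA box). They also mark a form of the CHR element of cell cycle genes (TTTGAA) and a heat shock element unit (GAANNTTC). All were searched on both strands.
TUBA1A, chr12:49189081-49189330, minus strand: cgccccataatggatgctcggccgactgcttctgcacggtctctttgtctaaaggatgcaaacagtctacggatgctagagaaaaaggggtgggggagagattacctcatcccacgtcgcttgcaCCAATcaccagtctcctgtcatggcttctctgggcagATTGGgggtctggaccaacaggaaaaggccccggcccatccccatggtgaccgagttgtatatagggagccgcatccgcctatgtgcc
TUBA1B, chr12:49131396-49131645, minus strand: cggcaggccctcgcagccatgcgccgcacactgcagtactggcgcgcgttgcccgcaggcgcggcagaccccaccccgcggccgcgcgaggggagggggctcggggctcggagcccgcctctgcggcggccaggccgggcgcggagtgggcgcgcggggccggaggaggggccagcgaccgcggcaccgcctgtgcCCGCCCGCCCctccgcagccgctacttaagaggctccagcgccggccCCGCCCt
TUBB4B, chr9:137241037-137241286, plus strand: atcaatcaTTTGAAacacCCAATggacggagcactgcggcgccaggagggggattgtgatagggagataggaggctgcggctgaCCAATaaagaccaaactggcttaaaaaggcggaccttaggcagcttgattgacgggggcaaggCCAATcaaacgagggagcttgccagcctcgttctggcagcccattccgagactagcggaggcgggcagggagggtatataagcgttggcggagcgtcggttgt

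The TUBB4B window held 3 CCAAT and 1 TTTGAA, the TUBA1A window held 2 CCAAT, and the TUBA1B window held 3 GGGCGG, of which 2 overlap, and none of the other motifs. Their G and C content was 56.8%, 56.4% and 81.2%, beside a median of 58.0% over all 35116 RefSeq windows of this length. Among those windows CCAAT occurred in 32.0%, GGGCGG in 42.6%, TATAAA in 10.7%, TTTGAA in 13.3% and GAANNTTC in 5.78%. The 10 members have 15 such windows, of which 10 held CCAAT, 9 GGGCGG, 1 TATAAA (TUBB2A), 3 TTTGAA and 2 GAANNTTC (both of TUBA1C). Only the forms named above were searched, so others, such as the TATATA in the TUBA1A and TUBB4B windows, were not counted. These letter matches are a description of the windows, and binding was not measured.

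In GENCODE v44 (GRCh38), TUBA1B (ENSG00000123416) lies on chromosome 12 from 49127782 to 49131397 and TUBA1A (ENSG00000167552) from 49184686 to 49189080, both on the minus strand, with TUBA1C (ENSG00000167553) from 49188736 to 49274600 on the plus strand. TUBB2A (ENSG00000137267, 3153497 to 3157544), TUBB2B (ENSG00000137285, 3223324 to 3231730) and TUBB (ENSG00000196230, 30717435 to 30725538) are on chromosome 6. TUBB4B (ENSG00000188229) is on chromosome 9 from 137241287 to 137243707, TUBG1 (ENSG00000131462) on chromosome 17 from 42609641 to 42615238 and TUBB6 (ENSG00000176014) on chromosome 18 from 12307669 to 12344320. TUBB3 (ENSG00000258947) is on chromosome 16 from 89921392 to 89938761, and 92.8% of its exon bases are also exons of a readthrough gene on the same strand, which has a row in the table with 0 UMIs. The counting tool drops reads that fall in both genes, so the TUBB3 counts are uncertain and may miss molecules. In the last 400 bases of each transcript, where this 3′ chemistry reads, 90-base windows identical to another tubulin transcript were counted. They made up 35.4% of windows of TUBB2A, 17.4% of TUBB4B and 16.1% of TUBA1B. The share was 0% for TUBA1A, TUBA1C, TUBB, TUBB2B, TUBB6 and TUBG1, and 98.4% for TUBB3, all with the readthrough gene. Counts of TUBB2A, TUBB4B and TUBA1B are therefore less certain than those of the other members, TUBB3 and TUBA1C aside.

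TUBB and TUBA1B were the most abundant isotypes in both flasks. TUBB, the general beta-tubulin, had 1320 CPM in SplitA (95% exact Poisson interval 1291 to 1351) and 1286 in SplitB (1260 to 1311). TUBA1B, the general alpha-tubulin, had 1262 (1233 to 1292) and 1216 (1191 to 1241). TUBB thus stood above TUBA1B in both flasks, by more than the counting intervals in SplitB but not in SplitA. Because a UMI stands for 1 captured 3′ end, these values need no division by length, and intervals here cover counting error only.

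TUBA1A, the alpha isotype of developing neurons, had 900.5 CPM in SplitA and 869.1 in SplitB. TUBB2B, a beta isotype of migrating neurons, had 394.1 and 373.0, and TUBB4B had 170.0 and 168.7. Each of these 3 stood apart from its neighbours in the order in both flasks. TUBB2A (56.5 and 58.4 CPM) and TUBG1 (49.0 and 53.2) overlapped in their counting intervals in both flasks, and their order is not resolved. TUBB6 had 16.8 and 14.3 CPM and TUBB3, the usual neuronal beta-tubulin marker, 8.58 and 6.38, the latter with the counting limit given above. TUBA1C had 0 UMIs in SplitA and 1 UMI in SplitB. By the limit of 3 UMIs for a count of 0, up to 0.536 CPM is allowed in SplitA, and the exact Poisson interval reaches 0.659. However, the annotation used for counting is not given in the sources used here, so these counts may miss TUBA1C molecules. The 10 members together made up 0.418% of nuclear UMIs in SplitA and 0.405% in SplitB, and alpha UMIs outnumbered beta UMIs 1.10 and 1.09 to 1. The levels above pool all singlets. Under 15% mitochondrial share alone alpha per beta was 0.960 and 0.970, with TUBA1A at 534.8 and 526.8 CPM and TUBB4B at 92.2 and 97.5.

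Of 12 other tubulin genes, TUBE1, encoding epsilon-tubulin of centrioles, had 140 UMIs over all singlets, TUBB4A 134, the second gamma gene TUBG2 132, the delta gene TUBD1 38 and TUBA4A 23. The other 7 had 0 to 7 UMIs. TUBE1 at 10.5 CPM, TUBB4A at 10.1 and TUBG2 at 9.95 were thus below TUBB6, and their counting intervals reached into that of TUBB3.

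TUBB, TUBA1B, TUBB4B and TUBG1 were higher in S than in G1 and higher in G2M than in G1. TUBA1A and TUBB2B had their highest CPM in G2M in both flasks but passed the fold limit in neither comparison, and TUBB2A was lower in G2M. Differences were fitted with edgeR's quasi-likelihood test on the UMI sums of each flask and state, with the flask as a block, over 10355 genes, and a gene was called at a Benjamini-Hochberg adjusted p under 0.05 with a fitted fold of at least 1.5. TUBA1C could not be tested. In S, 4 of the 9 members tested were called higher and 0 lower, where 7.42% of all genes were called higher and 3.9% lower. In G2M, 5 were called higher and 1 lower, where 10.7% of all genes were higher and 8.12% lower. The median fitted log2 fold change of the members was 0.22 in S and 0.68 in G2M, beside -0.01 and 0.02 over all genes.

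TUBB4B had the largest fitted change of the members in G2M, and TUBG1 in S. The level of TUBB4B was 43.1 CPM in SplitA and 47.4 in SplitB in G1, 92.5 and 64.7 in S, and 149.6 and 195.3 in G2M. All G2M values stood above all S values and these above all G1 values, though SplitA exceeded SplitB in S, and SplitB exceeded SplitA in G2M, beyond their counting intervals. The fitted log2 fold change was 0.68 in S (adjusted p = 2.68e-05) and 1.82 in G2M (2.66e-38). Within single flasks, where no test is possible, the CPM fold in S was 2.15 in SplitA but 1.36 in SplitB, under the fold limit. Per cell TUBB4B went from 0.254 and 0.292 UMIs in G1 to 1.03 and 1.35 in G2M. TUBB4B is itself in the customary G2/M list, from which it had been removed. With it kept in the list, TUBB4B was still called in both states, but its call in S was lost with DESeq2 (0.72) and with cells thinned to 2000 UMIs (0.56).

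TUBA1B had 625.1 CPM in SplitA and 661.3 in SplitB in G1, 1116 and 1038 in S, and 1347 and 1464 in G2M. TUBB had 684.7 and 739.1 in G1, 1213 and 1165 in S, and 1549 and 1548 in G2M. The flasks' counting intervals overlapped except for TUBA1B in G2M, 1290 to 1405 in SplitA and 1412 to 1517 in SplitB. No counting intervals of different states overlapped for either gene. TUBA1B rose by a fitted log2 fold change of 0.67 in S (adjusted p = 1.05e-37) and 1.01 in G2M (3.52e-69), and TUBB by 0.66 (2.92e-40) and 0.99 (5.83e-72). Median UMIs per cell were higher as well, 5912 in SplitA and 6236.5 in SplitB in G1 and 7184 and 7210 in G2M, and the part of depth was not tested beyond the thinned cells, in which TUBA1B and TUBB were still called.

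TUBG1, which nucleates microtubules, had 30.0 and 30.8 CPM in G1, 59.9 and 50.5 in S, and 42.3 and 62.2 in G2M. Both later states were above G1 in both flasks, but S was the higher of them in SplitA and G2M in SplitB. Its fitted log2 fold change was 0.77 in S (adjusted p = 5.77e-05) and 0.69 in G2M (0.000232), the latter with a CPM fold of 1.41 in SplitA alone, under the limit. Both TUBG1 calls were lost with DESeq2 (0.79 and 0.65) and with thinned cells (0.48 and 0.68). TUBB6, a beta isotype of non-neuronal cells, had 10.7 and 10.2 CPM in G1 and 18.3 and 18.0 in G2M, with only 22 to 37 UMIs in each of these sums. Its call in G2M (log2 0.68, adjusted p = 0.0478) was lost under 7 of the alternative settings.

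TUBA1A had 487.6 and 483.5 CPM in G1, 550.2 and 489.5 in S, and 567.4 and 586.0 in G2M. The G2M values stood above both G1 values by a fitted log2 fold change of 0.13 (adjusted p = 0.0361), under the fold limit. TUBB2B had 297.3 and 308.8 in G1, 339.3 and 311.2 in S and 378.0 and 374.2 in G2M, with a fitted change of 0.19 in G2M (adjusted p = 0.0106). TUBB2A went the other way, from 44.1 and 45.7 CPM in G1 to 25.9 and 33.5 in G2M. Its fitted log2 fold change was -0.70 (adjusted p = 0.000426). This call rests on 41 and 69 UMIs in G2M and was lost with DESeq2, without TMM, with a mitochondrial filter on 9 genes and with cells thinned to 2000 UMIs. TUBB3 had 2.94 to 6.65 CPM in every state, from 6 to 16 UMIs a sum, and was called in neither comparison.

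**Figure D1:**
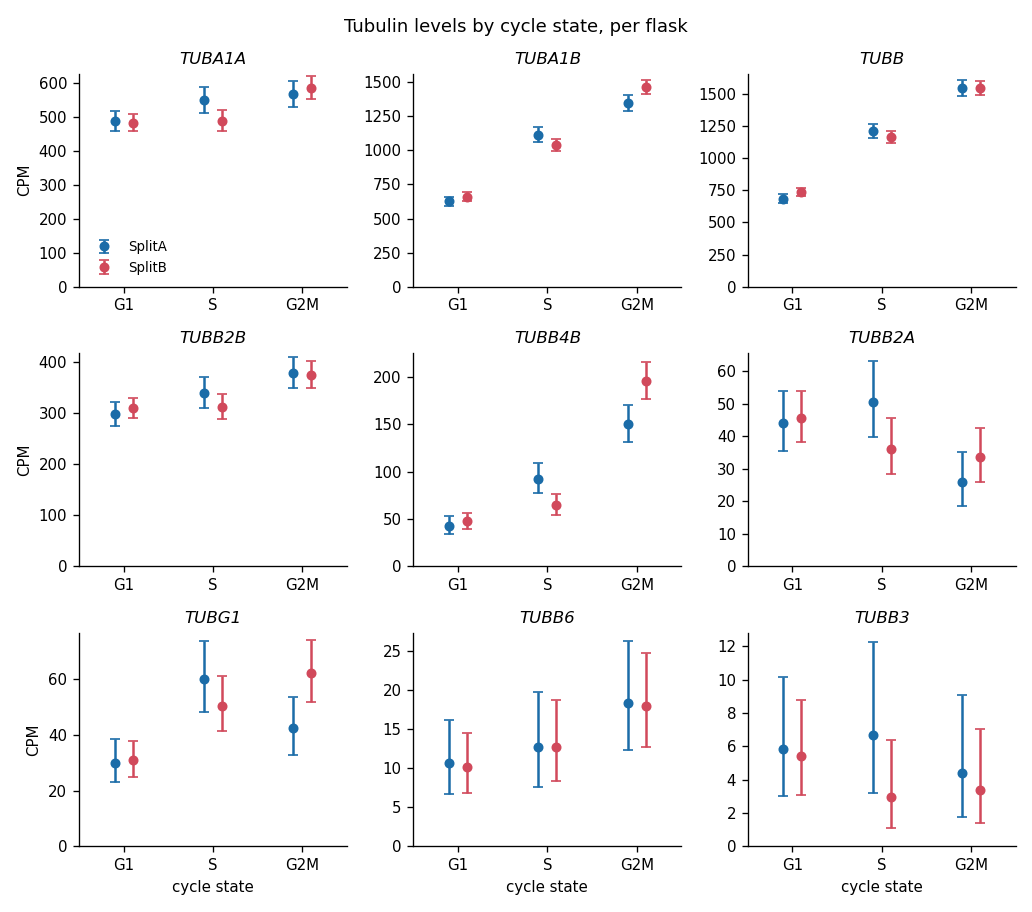
Level of each member in CPM (linear axes from 0) in G1, S and G2M cells of the 2 flasks, with exact 95% Poisson intervals for counting error. TUBA1B, TUBB and TUBB4B climb at each step in both flasks, TUBA1A and TUBB2B stay within a narrow band, and TUBB2A is lowest in G2M.

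The make-up of each chain differed between the states too. TUBA1A was 43.8% of alpha UMIs in SplitA and 42.2% in SplitB in G1 (exact binomial intervals 41.8 to 45.9 and 40.6 to 43.9), 33.0% and 32.1% in S, and 29.6% and 28.6% in G2M (28.0 to 31.3 and 27.2 to 30.0). Among beta UMIs TUBB4B made up 3.97% and 4.10% in G1 and 7.04% and 8.99% in G2M, while TUBB2B went from 27.4% and 26.7% to 17.8% and 17.2%. TUBB went from 63.1% and 63.9% to 72.9% and 71.3%. The flasks differed the same way in each case and no interval in G1 overlapped one in G2M. Alpha and beta UMIs stayed near balance, at 1.03 and 0.990 alpha per beta in G1 and 0.901 and 0.944 in G2M. All members together went from 0.223% and 0.233% of nuclear UMIs in G1 to 0.408% and 0.428% in G2M. These shares are descriptions with no test. They are shares of the members as counted, and TUBA1C and TUBB3 may be undercounted, so alpha shares rest in effect on TUBA1A and TUBA1B.

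**Figure D2:**
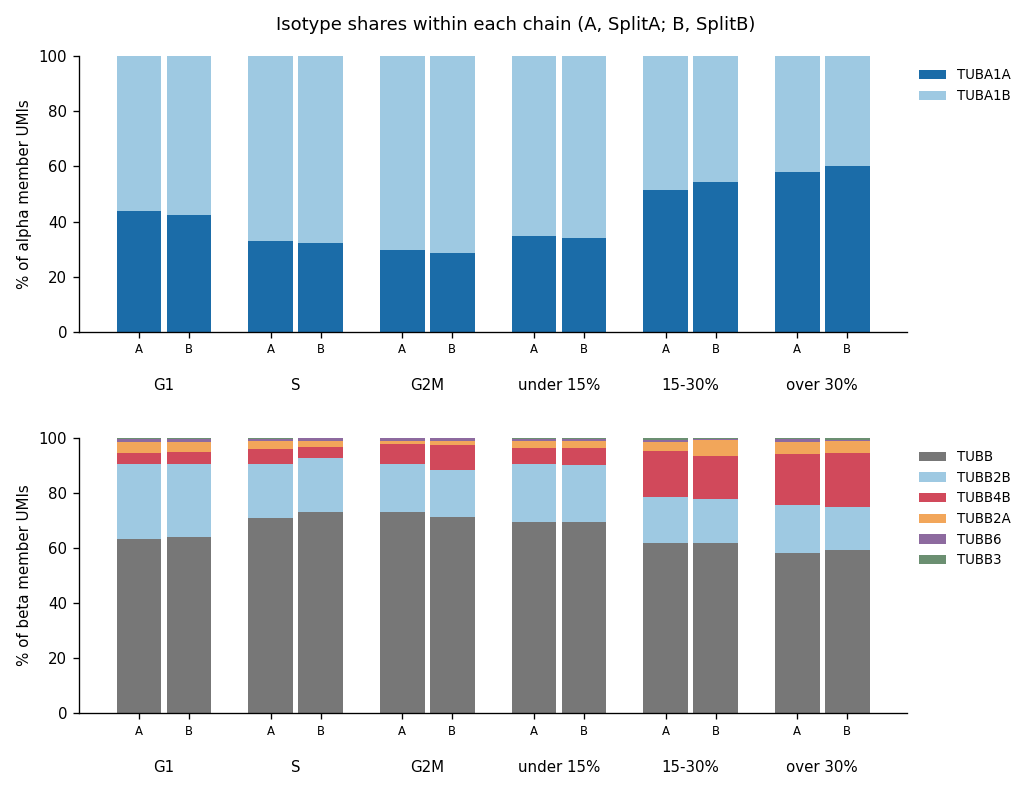
Share of each isotype among the UMIs of the alpha members (upper panel) and beta members (lower panel), in percent, for each cycle state and each class of mitochondrial share, with 1 bar per flask. TUBA1A is 43.8% and 42.2% of alpha in G1, 29.6% and 28.6% in G2M and 57.9% and 60.3% in cells over 30%, and the TUBB4B band is widest over 30%, at 18.3% and 19.6% of beta.

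The values of single cells were compared next. Over the 847 SplitA and 1130 SplitB cells under 15%, 5184 genes were ranked by Pearson r of log-normalized values, taking the lower r of the flasks, and TUBB ranked first for TUBA1B (r = 0.479 and 0.501). STMN1 (stathmin, which binds tubulin dimers), HMGB1, H2AZ1 and HMGN2 came next, with r from 0.427 to 0.485, and in SplitA alone HMGB1 (0.485) was above TUBB. For TUBB4B the closest were UBE2C (0.387 and 0.386), HMGB2, TUBA1B, TUBB and the mitotic kinase gene PLK1. For TUBA1A they were TUBA1B (0.357 and 0.407), CALM2, TUBB, ACTB and STMN1, the last 4 at 0.246 to 0.324. These are correlations across cells of 1 library that share depth, and they are given as a description.

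The genes that serve tubulin were read beside the members, on the same fits. Over all genes, 7.42% were called higher and 3.9% lower in S, and 10.7% and 8.12% in G2M. Of 12 spindle genes outside the phase lists, 10 were higher in S, led by KIFC1 (log2 2.75), KIF15 (2.64) and PRC1 (2.35). In G2M 11 were higher, led by the kinesin genes KIF20A (log2 5.41), KIF4A (4.62) and KIF14 (4.55). Of 12 genes of the gamma-tubulin ring complex and its recruitment, 2 were higher in S (TUBGCP3 and TUBGCP5) and 4 in G2M, among them CDK5RAP2 (1.38), MZT1 (1.37) and TUBGCP3 (1.25), and 0 were lower. Of 20 folding genes 0 were higher in either state, and the cofactor gene TBCC was lower in S (-0.66) and in G2M (-0.94). Of 13 genes for microtubule-binding proteins and stathmins, 2 were lower in S, DCX (-1.27) and DPYSL3 (-0.79). In G2M 3 were lower, DCX (-1.22), MAPT (-0.95) and STMN2 (-0.94), and 1 was higher. Of 13 tubulin modification genes tested, 1 was called in G2M, the deacetylase gene SIRT2 (-1.21), and 0 in S. TUBG2 was lower in G2M (-0.86, adjusted p = 0.0338), the opposite direction to TUBG1, and TUBB4A and TUBE1 were not called. The mRNA autoregulation genes TTC5 and SCAPER were not called in either state.

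Cells rich in mitochondrial RNA held a much larger fraction of tubulin among their nuclear RNA. Taking the members together, the share of nuclear UMIs was 0.317% in SplitA and 0.318% in SplitB under 15%, 1.68% and 1.33% at 15 to 30%, and 1.71% and 1.57% over 30%. All 9 members tested were higher over 30% than under 15%, and 8 at 15 to 30%, TUBB6 being the exception. TUBB4B and TUBA1A rose most. Of all 10688 genes tested, 11.6% were called higher and 13% lower at 15 to 30%, and 19.3% higher and 19% lower over 30%. The members' median log2 fold change was 1.48 and 1.28, beside -0.04 and 0.02 over all genes. Scaled by total nuclear UMIs in place of TMM, the median of all genes moved to 0.54 and 0.72 and the calls shifted to 85.4% and 81.6% higher, from 47.0% and 50.4%, so the fitted values below are relative to the bulk of genes and the CPM values are not.

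Depth and RNA make-up moved with the classes. Median UMIs per cell fell from 6244 and 6505 under 15% to 1853 and 2054 at 15 to 30% and 1511 and 1468 over 30%. Ribosomal protein genes took 40.8% of nuclear UMIs in both flasks under 15%, 17.5% and 21.0% at 15 to 30%, and 13.9% in both over 30%. With those genes left out of the denominator, an alternative added after seeing the data, the CPM fold of TUBA1A over 30% was 7.54 in SplitA and 7.38 in SplitB in place of 10.97 and 10.74. The part of RNA loss, cell damage or free RNA in these differences was not tested, and a lower level of other RNA cannot be told apart from a higher level of tubulin RNA in CPM.

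TUBA1A had 534.8 CPM in SplitA and 526.8 in SplitB under 15%, 5231 and 4273 at 15 to 30%, and 5864 and 5656 over 30%. SplitA exceeded SplitB beyond the counting intervals at 15 to 30% but not in the other classes, and both classes above 15% lay far outside the intervals of the first. The fitted log2 fold change was 2.57 (adjusted p = 1.05e-76) and 2.74 (3.81e-88). It also held more UMIs per cell, 3.27 and 3.31 under 15%, 8.23 and 8.14 at 15 to 30%, and 5.81 and 5.45 over 30%, although the cells held fewer UMIs in all. In cells thinned to 500 nuclear UMIs, 22.1% and 24.2% had a TUBA1A UMI under 15%, 83.8% and 84.9% at 15 to 30%, and 90.4% and 88.2% over 30%. This left out 0, 5 and 66 shallower cells. Without thinning the shares were 89.0% and 88.8%, 97.8% and 96.9%, and 92.2% and 90.2%. The line holds no cell type known to lack tubulin against which free RNA could be read.

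TUBB4B followed the same pattern, with 92.2 and 97.5 CPM, then 1065 and 836.5, then 1256 and 1194. Its fitted log2 fold change was 2.73 (adjusted p = 3.02e-87) and 2.99 (3.47e-116), the largest of the members in both comparisons. Its UMIs per cell were 0.564 and 0.612 under 15%, 1.68 and 1.59 at 15 to 30% and 1.24 and 1.15 over 30%. The flasks' counting intervals overlapped in each class.

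The other abundant isotypes rose less. TUBA1B went from 997.3 and 1016 CPM to 4929 and 3600 and then 4258 and 3723, a fitted log2 fold change of 1.48 and 1.28. TUBB went from 1108 and 1107 to 4006 and 3276 and then 4002 and 3624 (1.12 and 1.08), and TUBB2B from 335.2 and 329.1 to 1088 and 857.0 and then 1198 and 951.7 (0.95 and 0.98). All 3 were called in both comparisons. Per cell, however, TUBB went from 6.79 and 6.96 UMIs under 15% to 3.96 and 3.49 over 30%, TUBB2B from 2.05 and 2.07 to 1.19 and 0.916, and TUBA1B from 6.11 and 6.38 to 4.22 and 3.59. At 15 to 30% TUBB stood at 6.30 and 6.24, TUBB2B at 1.71 and 1.63, and TUBA1B at 7.75 and 6.86, above its count under 15%. Over 30%, counts per cell of TUBA1A and TUBB4B were thus higher than under 15% and those of these 3 lower.

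Among the rarer members TUBB2A had 40.5 and 40.3 CPM under 15%, 224.1 and 295.3 at 15 to 30% and 298.2 and 269.4 over 30% (log2 2.11 and 2.10). TUBG1 had 43.0 and 45.5, then 128.0 and 106.6, then 120.3 and 176.6 (0.81 and 1.10). TUBB3 had 5.59 and 4.37 CPM under 15%, 54.9 and 20.5 at 15 to 30% and 36.6 and 38.9 over 30% (2.29 and 2.28), from 5 to 13 UMIs in each sum above 15%. TUBB6 had 13.7 and 13.1, then 41.2 and 28.7, then 73.2 and 29.9 CPM, and over 30% SplitA was the higher flask with overlapping counting intervals. Its fitted change was 0.77 at 15 to 30% (adjusted p = 0.186) and 1.10 over 30% (0.00927). TUBA1C had 0 UMIs above 15% in either flask.

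**Figure D3:**
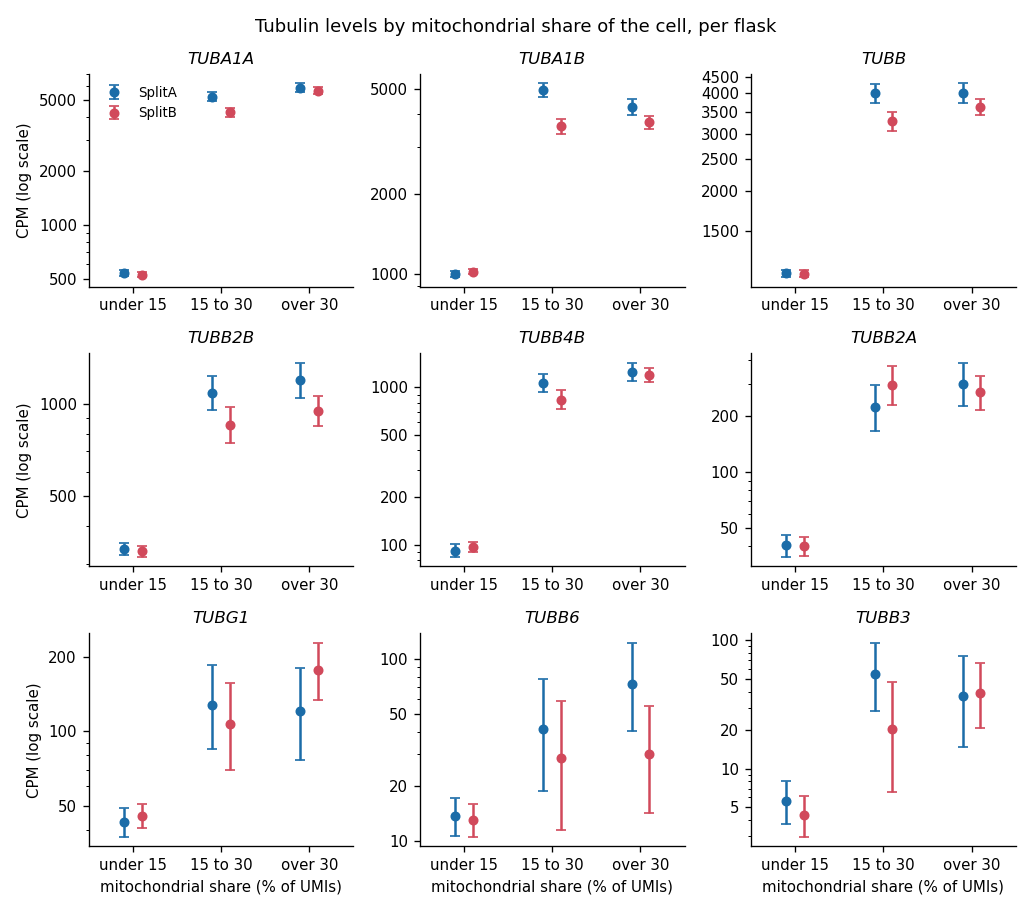
Level of each member in CPM (log axes) in cells under 15%, at 15 to 30% and over 30% mitochondrial share, per flask, with exact 95% Poisson intervals for counting error. Every member plotted lies higher above 15% than under it in both flasks, with TUBA1A going from 534.8 and 526.8 to 5864 and 5656 CPM.

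Among cells of 1000 to 3000 UMIs the differences were smaller. Only 18 SplitA and 33 SplitB cells under 15% were in that range, with medians of 2618 and 2328 UMIs against 1619.5 and 1612 over 30%, so depth was narrowed but not equal. Their TUBA1A level was 836.9 and 2173 CPM, above the class as a whole, against 5960 and 5672 in the 164 and 266 cells over 30%. The fitted log2 fold change of TUBA1A over 30% was then 1.39, of TUBB4B 1.81 and of TUBB 0.76, and these 3 were still called. TUBA1B (0.37), TUBB2A (0.45), TUBB2B (0.34) and TUBG1 (0.74) were not, and TUBB3 and TUBB6 had too few UMIs to be tested. At 15 to 30%, TUBA1A (1.34), TUBB4B (1.67), TUBB (0.97) and TUBA1B (0.65) were called in that range and TUBB2A, TUBB2B and TUBG1 were not. Of all 2915 genes tested in that range, 279 were called higher and 475 lower at 15 to 30%, and 448 and 592 over 30%. The median log2 fold change of all genes there was 0.22 and 0.29, so the uncalled TUBA1B and TUBB2B values over 30% lay near it. For cells scored as G1, states were called anew over all singlets, without the filters used for the cycle states above. G1 then held 437 SplitA and 596 SplitB cells under 15%, 45 and 39 at 15 to 30%, and 69 and 112 over 30%. Their median UMIs were 5819 and 6136 under 15% and 1621 and 1492 over 30%, so depth was not matched. In these G1 cells TUBA1A was higher by log2 2.32 and 2.76 and TUBB4B by 2.34 and 2.77. TUBB3 had too few UMIs there to be tested. TUBB was no longer called at 15 to 30% (0.57), TUBB6 was not called over 30% (0.95), and TUBG1 was called in neither class (0.09 and 0.93). Of all 8395 genes tested in G1 cells, 351 were called higher and 640 lower at 15 to 30%, and 860 and 1104 over 30%. The median of all genes was -0.13 and -0.09.

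**Figure D4:**
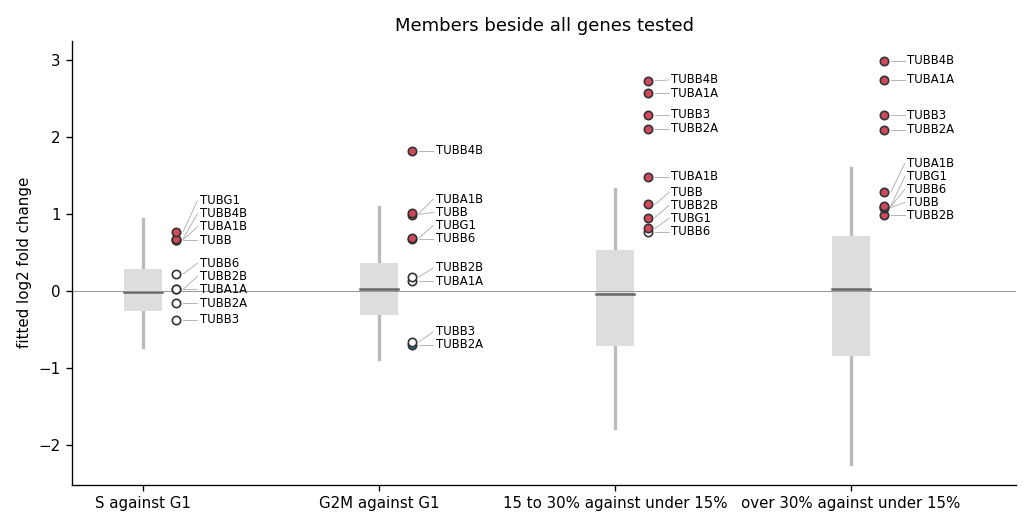
Fitted log2 fold change of the 9 members tested in the 4 comparisons (red, called higher; dark blue, called lower; white, not called) beside all genes tested, whose median, middle 50% and 5th to 95th percentiles are drawn in grey. TUBB4B is highest in all comparisons but S, and TUBA1A sits near the middle of all genes in the cycle and near the top above 15%.

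The balance of isotypes differed as well. TUBA1A was 34.9% of alpha UMIs in SplitA and 34.1% in SplitB under 15%, 51.5% and 54.3% at 15 to 30%, and 57.9% and 60.3% over 30% (55.7 to 60.1 and 58.6 to 62.0). TUBB4B went from 5.78% and 6.13% of beta UMIs to 16.4% and 15.7% and then 18.3% and 19.6%, while TUBB went from 69.5% and 69.6% to 58.3% and 59.3%. Alpha UMIs went from 0.960 and 0.970 alpha per beta under 15% to 1.57 and 1.48, and 1.48 and 1.54 over 30%. In an alternative added after seeing the data, TUBA1A within cells scored as G1 was 42.3% and 40.3% of alpha under 15% and 72.3% and 74.6% over 30%. In another, within cells of 1000 to 3000 UMIs, it was 35.4% and 46.0% under 15%, from 99 and 300 alpha UMIs, and 58.5% and 61.3% over 30%. TUBB4B there went from 6.59% and 10.3% of beta UMIs to 18.1% and 18.6%. TUBB was 59.3% and 62.1% under 15% and 58.7% and 59.4% over 30%, with overlapping intervals. Beta UMIs there were 91 and 174 under 15%. Over 30% SplitA had 1743 alpha and 1134 beta UMIs, and SplitB 2550 and 1644. Alpha per beta in that range was thus higher over 30% in SplitA but lower in SplitB. Ratios within a chain do not depend on the denominator of CPM, and they are given here without a test. Possible undercounting of TUBA1C and TUBB3 limits these shares and alpha per beta as well.

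In finer bins the change was not gradual. With both flasks together, TUBA1A had 1082 CPM in the 64 cells at 0 to 5%, whose median depth was 2547.5 UMIs. TUBA1A had 581 at 5 to 7.5%, 480 at 7.5 to 10% and 563 at 10 to 15%. It then stood at 3002 CPM in the 46 cells at 15 to 20%, with 3835 in SplitA and 2507 in SplitB. It was 5591 at 20 to 30%, 5844 at 30 to 40%, 5822 at 40 to 50% and 3450 in the 57 cells over 50%. Levels were thus lowest at 7.5 to 10% and far higher in every bin above 15%. Its UMIs per cell were highest at 15 to 20% (12.3 in SplitA and 8.68 in SplitB, from 18 and 28 cells) and fell to 2.00 and 1.21 over 50%. At 20 to 30%, 30 to 40% and 40 to 50%, TUBA1B had 5247, 4378 and 4189 CPM in SplitA and 4594, 4274 and 2726 in SplitB. The last step was small in SplitA, with 35 cells at 40 to 50%, and larger in SplitB, with 113. Over these bins TUBA1A had 5731, 5829 and 6360 CPM in SplitA and 5438, 5855 and 5674 in SplitB.

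**Figure D5:**
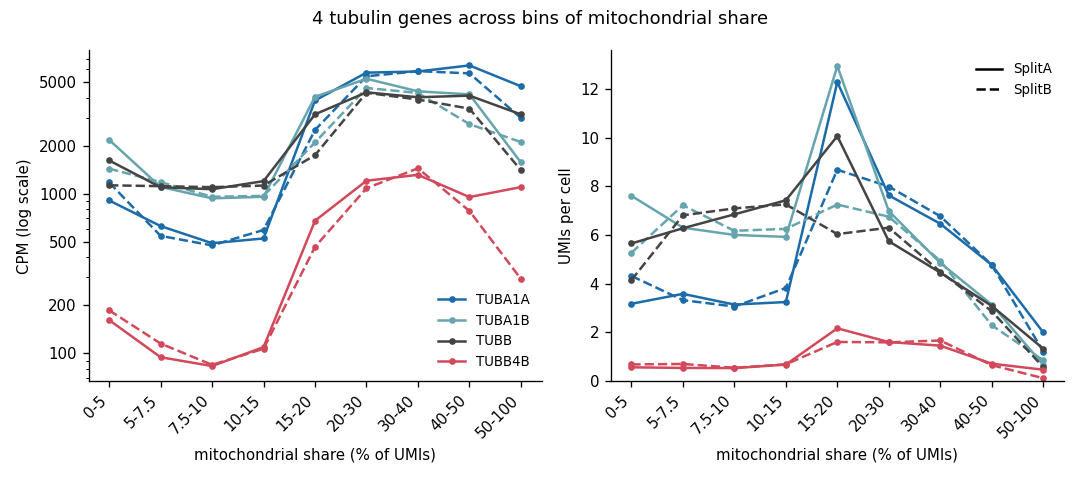
CPM (left, log axis) and UMIs per cell (right, linear axis from 0) of TUBA1A, TUBA1B, TUBB and TUBB4B across 9 bins of mitochondrial share, with solid lines for SplitA and dashed lines for SplitB. CPM climbs between 10 to 15% and 20 to 30% for all 4 genes, and UMIs per cell decline from 20% upward except for TUBB4B in SplitB, which was 1.59 at 20 to 30% and 1.67 at 30 to 40%.

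Genes that fold tubulin were called in both directions in the same cells. Beside the lists here, 11.6% of all genes were called higher and 13% lower at 15 to 30%, and 19.3% and 19% over 30%. Of 20 folding genes, 9 were higher and 6 lower at 15 to 30%, and 11 higher and 7 lower over 30%, the largest changes being higher levels of the chaperonin subunit genes CCT5 (log2 2.87 over 30%), CCT7 (2.44) and CCT8 (2.25). Of 12 gamma-tubulin ring genes, 0 were higher and 3 lower at 15 to 30%, the small subunit genes MZT2A (-1.80), MZT2B (-1.34) and MZT1 (-1.29). Over 30%, 5 were higher and 3 lower, including TUBGCP6 (1.76), MZT1 (-2.01) and MZT2B (-2.0). Of 14 modification genes 0 were higher in either class and 3 and 2 lower. Lower in both were SVBP, the partner of the tyrosine-removing vasohibins (-1.54 and -2.23), and the deglutamylase gene AGBL5 (-1.01 and -1.65). TTLL1, with only 79 UMIs over all singlets, was lower at 15 to 30% (-6.83, adjusted p = 0.0455). Among 13 microtubule-binding genes, MAP1B (1.18) and STMN4 (0.79) were the 2 higher at 15 to 30%, and over 30% 2 were higher, with MAP1B at 1.39, and 4 lower, with DCX at -2.46 and MAP6 at -1.03. TTC5, whose protein recognises newly made tubulin in mRNA autoregulation, was higher over 30% (1.38, adjusted p = 0.00713) and SCAPER was not called. Of 12 spindle genes 5 and 8 were higher. Of 3 other tubulin genes tested, 0 were called in either class.

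Neuroblastoma markers moved too, 3 of 9 higher and 2 lower at 15 to 30%, and 3 higher and 3 lower over 30%. The higher ones in both classes were CHGA (1.54 and 2.53), CHGB (1.15 and 1.96) and DBH (0.74 and 1.06). Across the 9 the median log2 fold change was -0.115 and -0.151. Of the 2 mesenchymal markers with enough UMIs to test in these classes, 0 were called. In the cycle, 2 of 9 neuroblastoma markers were lower in S and 4 lower and 1 higher in G2M, with CHGA at -1.67, and VIM was lower in both states (-1.0 and -1.02). Shares of all genes called were 11.6% higher and 13% lower at 15 to 30%, and 19.3% and 19% over 30%. In S they were 7.42% and 3.9%, and in G2M 10.7% and 8.12%.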

How the data were processed

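Single-cell RNA and hashtag libraries were made by the study from untreated SH-SY5Y cells (10x 3′ chemistry). The authors deposited a table of UMI counts, not normalized, for 33538 genes and 2 hashtags in 2879 filtered cells, made with Cell Ranger 4.0.0 and STAR 2.7 on GRCh38 per the labels. The gene annotation release is not given in the sources used here, and symbols were matched through the reference tables by Ensembl identifier. Flasks were read from the hashtag counts.

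Singlets (2784, 14905923 UMIs) were used. Cells kept for cycle states had over 500 UMIs, over 300 and at least 1000 genes, log10 of the genes divided by log10 of the UMIs above 0.75 and under 15% mitochondrial UMIs, and were scored with Seurat 5.3.0 (CellCycleScoring, 42 S and 51 G2/M genes, no tubulin). No doublet caller was run beyond the hashtags, which marked 95 cells as multiplets. CPM is UMIs per 1000000 UMIs of genes other than the 13 mitochondrial ones. UMI sums of each flask and class (6 per fit) were tested in edgeR 4.0.16 with TMM, the flask as a block and a minimum of 50 UMIs over the sums. Adjusted p-values are Benjamini-Hochberg over all genes tested. The test was also run on simulated counts with 1 RNA make-up for all 6 sums, apart from genes altered on purpose, and no flask effect. The mitochondrial classes differ in make-up, so that run cannot show how the test behaves there. The flasks were kept as a block because both hold cells of every class. Alternatives were DESeq2 1.42.0, other filters, scalings, phase lists and depths, and each flask alone. For the alternative in cells scored as G1, all singlets were scored without these filters.

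All members were named, with other tubulins of at least 10 UMIs, up to 3 called genes with the largest change in each further list, and the 5 most correlated genes of TUBA1A, TUBA1B and TUBB4B. The members and lists were chosen with earlier results of these data known, so the calls describe these cells and are not independent support. Intervals are 95% and a count of 0 allows up to 3 UMIs. Promoter windows are from RefSeq.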

Additional observations from a re-analysis of the deposited data

How the results depend on the processing

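Directions and calls were compared under 59 combinations of result and setting, and 3 more were added after seeing the data. The number of members called in S fell from 4 to 2 with DESeq2 and to 2 with cells thinned to 2000 UMIs, and in G2M from 6 to 3 under each. At 15 to 30% it fell from 8 to 4 in cells of 1000 to 3000 UMIs and to 5 in cells scored as G1, and over 30% from 9 to 3 in cells of 1000 to 3000 UMIs, where fewer genes (2915) and cells were tested. Over 30% it was also 6 in cells scored as G1 and 7, all the members tested, in cells thinned to 1000 UMIs. TUBB3 and TUBB6 had too few UMIs to be tested in thinned cells and in cells of 1000 to 3000 UMIs. In cells scored as G1 TUBB3 had too few. Part of the lower counts is thus members not tested. In cells of 1000 to 3000 UMIs the fitted changes were smaller too, with TUBA1A over 30% at 1.39 in place of 2.74. Other causes of the lower counts were not tested. Signs reversed for values not called at the reported settings: TUBB2A (0.0072) and TUBB3 (0.034) in S with the mitochondrial filter on 9 genes, the same genes in SplitA alone (0.20 each), and TUBB6 at 15 to 30% in G1 cells (-0.32). With either flask alone, by CPM fold without TMM or a test, 4 members passed the limit in S and 5 to 6 in G2M. Above 15% 9 did in both classes. The members were not always the same. On that scale, with both flasks, the median log2 fold change of all genes was 0.54 at 15 to 30% and 0.72 over 30%. The share of all genes passing the limit in 1 flask was not counted, so these counts have no background beside them. In SplitB alone TUBB4B (0.45) fell under the limit in S and TUBB2A (-0.45) in G2M, while TUBB3 passed it as lower (-0.88 and -0.67), and in SplitA alone TUBG1 (0.49) fell under it in G2M. Without the flask block the numbers of members called in the fits stayed at 4, 6, 8 and 9. Of tested changes of single genes, 348 kept direction and side of the limits, 30 lost the call and 1 gained it. Of levels and shares, 72 stayed within the spread between flasks and 23 did not. These counts cover the planned settings. In the added ones, 15 shares in cells scored as G1 moved beyond that spread. In cells of 1000 to 3000 UMIs 8 shares did and 7 did not. Without ribosomal protein genes in the denominator, 16 CPM folds did and 2 did not.

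Over all genes DESeq2 called 293 higher and 72 lower in S in place of 768 and 404, 418 and 245 in G2M in place of 1111 and 841, 631 and 764 at 15 to 30% in place of 1235 and 1394, and 926 and 1228 over 30% in place of 2065 and 2034. Thinned cells gave 234 and 99, and 464 and 308, in the cycle and 782 and 862, and 1300 and 1268, above 15%. Cells of 1000 to 3000 UMIs gave 279 and 475, and 448 and 592, and G1 cells 351 and 640, and 860 and 1104. Total scaling gave 901 and 299 (75.1% higher, against 65.5%), and 1543 and 547 (73.8%, against 56.9%), in the cycle, and 2896 and 494, and 4152 and 939, above 15%. In S, 80.3% of DESeq2 calls were higher.

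TUBB3 and TUBB6 had few UMIs and TUBA1C could not be tested. The comparison in cells of 1000 to 3000 UMIs rests on 18 and 33 cells under 15%.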
